A study of Mus musculus with 9 samples.

Results

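Proteasome subunit genes were taken as every probe set whose annotation gives 1 gene symbol made of Psm, a letter from a to f and a number, which gave 92 probe sets of 43 genes, of 18193 genes named on the array. The genes were read in whole right lung of mice of 3 inbred strains on 9 one-colour oligonucleotide arrays. BL6 (labelled C57/BL6), FVB/N and SV129 mice were kept for 4 weeks in hypobaric hypoxia at 50 kPa (2 arrays per strain) or at 85 kPa, here called normoxia (1 array per strain). No mutation, transgene or drug is given for any group, and age and sex are not given either. The labels do not say that each array came from a separate animal, and the p-values below rest on the spread between arrays alone, which may be technical. The number of arrays limits the precision of every value below.

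The proteasome is the large protease that degrades proteins tagged with ubiquitin. Its 20S core is a barrel of alpha rings, which gate the entrance, around beta rings, which hold the catalytic sites, and its 19S cap recognises ubiquitin, unfolds the substrate and feeds it in. Interferon-induced catalytic subunits replace the constitutive ones in the immunoproteasome, which is abundant in immune cells and shapes the peptides shown on MHC class I. Other activators can bind the ends of the core in place of the 19S cap.

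Values are log2 of the signal plus 16 after quantile normalization, and a change is the log2 difference between hypoxic and normoxic arrays in a model with strain as a term. A probe set was called when limma's Benjamini-Hochberg adjusted p over all 27022 tested probe sets was below 0.05. Of the members, 73 probe sets of 41 genes were bright enough to be tested and 19 probe sets were not. Both genes without a tested probe set have known tissue-restricted roles. Psma8, the alpha subunit of the testis proteasome, lay between 5.57 and 6.51 on hypoxic arrays and between 5.34 and 6.04 on normoxic arrays. Psmb11, the catalytic subunit of the thymus proteasome, lay between 4.18 and 5.62 on hypoxic arrays and between 4.34 and 5.71 on normoxic arrays. A gene is read through its brightest probe set unless another is named, and probe sets of different genes are not compared in level. The probe set of the activator Psme2 carries the symbol of a second gene as well and is not a member.

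Each array carried all 7 lung markers at a mean log2 signal of 13.85 to 14.44. Of 12 kidney markers 11 were on the array, with a mean of 11.67 for hypoxic BL6 array 2, 12.70 for the FVB/N array kept at normoxia and 5.87 to 6.39 for the remaining 7. The FVB/N normoxic array also had all 6 fast muscle markers at 9.74 (Myh4) to 13.13 (Acta1), against 4.23 to 8.99 elsewhere, while the brown adipocyte markers Ucp1 (4.54) and Cidea (4.34) were not raised on it. The spiked control transcript bioC (3-prime probe set) read 958.7 to 1595 signal units on hypoxic arrays and 301.2 to 315.3 on normoxic arrays, while bioD (5-prime probe set) read 2355 to 4410 on hypoxic arrays and 6523 to 7276 on normoxic arrays. Pressure and array processing therefore cannot be told apart in any difference below. In whole lung, fewer cells of a type and less RNA per cell cannot be told apart either.

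Hypoxic lungs were lower in 4 proteasome probe sets, one each of Psmc4, Psmc6, Psmd6 and Psmb4. On their brightest probe sets the 40 genes other than Psmc4 had changes of -0.69 to 0.47, none of them called. The 4 calls were 5.48% of the 73 tested members, against 1.82% of all tested probe sets called lower and 3.76% called in either direction. No member was called higher by limma (6 had an unadjusted p under 0.05), against 1.94% of all tested probe sets. Over the brightest probe set of each of the 41 tested genes the median change was 0.11, with 27 genes above 0 and 14 below, against a median of 0.03 over the brightest probe sets of all tested genes. Of the 4 called probe sets only that of Psmc4 was the brightest of its gene, and this rank came from the normoxic arrays. The other Psmc4 probe set minus the called one was -1.43 to -0.79 on normoxic arrays and -0.06 to 1.14 on hypoxic arrays. The choice of the brightest Psmc4 probe set was therefore not independent of pressure.

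**Figure D1:**
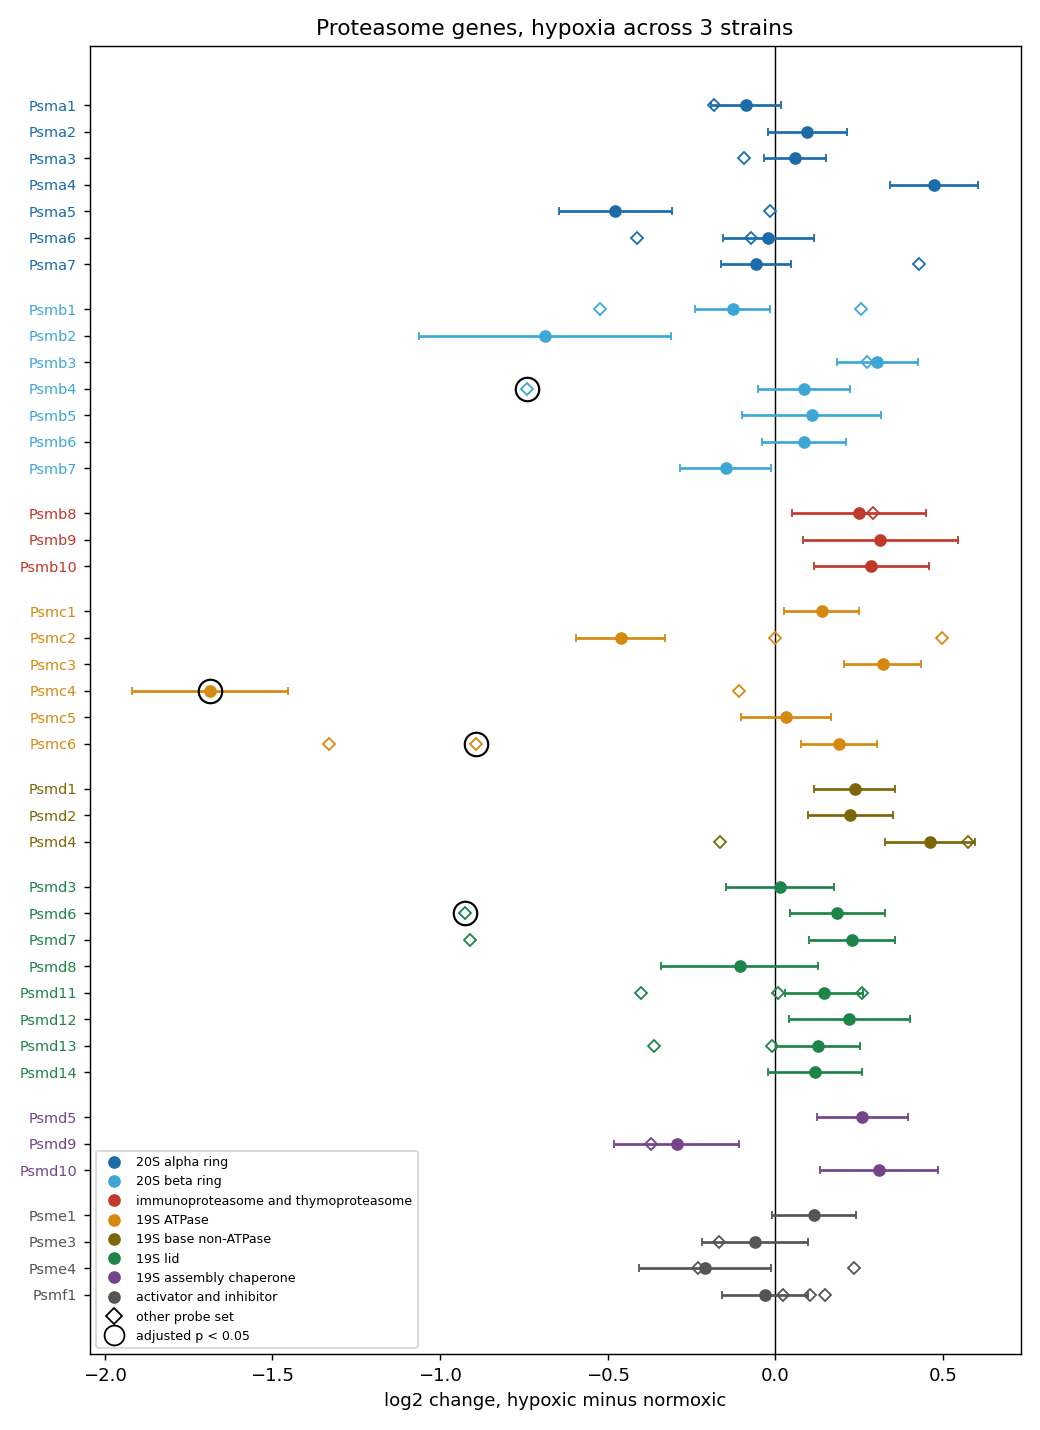
Change of each tested proteasome gene, hypoxic minus normoxic across 3 strains, in log2 units. Filled circles are the brightest probe set of a gene with its standard error, open diamonds its other probe sets, colours the particles, and black rings the 4 called probe sets. Most circles lie near 0, and that of Psmc4 lies at -1.69.

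The ring of 6 ATPases, the motor of the 19S cap that unfolds substrates and opens the core, held 2 of the calls. Psmc4 probe set 1416290_a_at read 9.98 and 9.57 on hypoxic BL6 arrays, 10.17 and 10.80 on hypoxic FVB/N arrays and 10.37 and 10.29 on hypoxic SV129 arrays, against 12.16, 11.81 and 11.68 on the normoxic BL6, FVB/N and SV129 arrays. Every hypoxic array lay below every normoxic array. The mean was 10.19 ± 0.41 in hypoxia (SD, n = 6) and 11.88 ± 0.25 in normoxia (SD, n = 3), and the change was -1.69 ± 0.23 (SE), a 3.22-fold lower signal with an adjusted p of 0.0151 in limma. The other Psmc4 probe set, 1416291_at, gave no such difference. It read 10.52 to 10.89 on hypoxic arrays and 10.63 to 11.01 on normoxic arrays, a change of -0.11 ± 0.12 with an adjusted p of 0.651.

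Psmc6, another ATPase of the ring, had 3 tested probe sets that went apart. Probe set 1417770_s_at read 9.29 and 9.13 on hypoxic BL6 arrays, 9.30 and 9.36 on hypoxic FVB/N arrays and 9.67 and 9.57 on hypoxic SV129 arrays, against 10.28, 10.33 and 10.23 on the normoxic BL6, FVB/N and SV129 arrays. Hypoxic and normoxic arrays did not overlap, and the change was -0.89 ± 0.14, with an adjusted limma p of 0.0185. The dimmer probe set 1417769_at lay at 6.03 to 7.71 on hypoxic arrays and 7.73 to 8.38 on normoxic arrays, a change of -1.33 ± 0.31 that missed the threshold (adjusted p 0.0529). The brightest, 1417771_a_at, read 11.70 to 12.02 on hypoxic arrays and 11.61 to 11.77 on normoxic arrays, and its change was 0.19 ± 0.11 (adjusted p 0.366). So the direction read for Psmc6 depended on the probe set.

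The remaining ATPases were not called on any probe set. Psmc2 read 11.64 to 12.12 on hypoxic arrays and 12.17 to 12.38 on normoxic arrays on its brightest probe set, 1435859_x_at, a change of -0.46 ± 0.13 with an adjusted p of 0.0878. Its probe set 1426611_at had a change of 0.00 ± 0.10, and 1443307_at one of 0.50 ± 0.24. Psmc3 had the highest change of the ring at 0.32 ± 0.11 (adjusted p 0.147). It read 11.79 to 12.30 on hypoxic arrays and 11.62 to 12.09 on normoxic arrays, so the groups overlapped. Psmc1 had a change of 0.14 ± 0.11 and Psmc5 one of 0.03 ± 0.13.

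Psmd6, a scaffold subunit of the 19S lid, was called on 1423696_a_at, which read 10.57 and 10.50 on hypoxic BL6 arrays, 10.46 and 10.54 on hypoxic FVB/N arrays and 6.25 and 6.20 on hypoxic SV129 arrays, against 11.14, 11.43 and 7.47 on the normoxic BL6, FVB/N and SV129 arrays. All 6 hypoxic arrays lay below the normoxic array of their own strain. The hypoxic SV129 values lay close to 6.127, the mean log2 signal below which probe sets were not tested. The SV129 part of the change therefore rests on dim signal. The change was -0.92 ± 0.15 (adjusted limma p 0.0194). Its other probe set, 1423697_at, read 11.60 to 11.87 on hypoxic arrays and 11.31 to 11.91 on normoxic arrays, with a change of 0.19 ± 0.14 (adjusted p 0.48).

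Psmb4, a non-catalytic subunit of the beta ring, was called on 1438984_x_at. That probe set read 11.60 and 11.43 on hypoxic BL6 arrays, 11.27 and 11.55 on hypoxic FVB/N arrays and 11.57 and 11.67 on hypoxic SV129 arrays, against 12.32, 12.29 and 12.16 on the normoxic BL6, FVB/N and SV129 arrays, with no overlap between pressures. The change was -0.74 ± 0.12 (adjusted limma p 0.0205). The brighter probe set 1451205_at lay at 12.39 to 13.08 on hypoxic arrays and 12.52 to 12.99 on normoxic arrays, and its change was 0.09 ± 0.14 (adjusted p 0.752). Without hypoxic BL6 array 2 and the normoxic FVB/N array, which carried the kidney transcripts, Psmc4 was still called (-1.87, adjusted p 0.0445), while Psmc6 (-0.85, adjusted p 0.0902), Psmd6 (-0.99, adjusted p 0.0774) and Psmb4 (-0.68, adjusted p 0.0904) were not. Leaving out hypoxic BL6 array 5, the normoxic BL6 array or the normoxic SV129 array each left 0 of the 4 calls. The adjusted limma p-values for Psmc4 were then 0.0549, 0.0757 and 0.0771. Over all tested probe sets the hypoxia calls fell from 1016 to 228 without both arrays with kidney transcripts. Without each of these single arrays they fell to 32, 11 and 3, in the same order. The loss of calls was thus not particular to the proteasome.

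**Figure D2:**
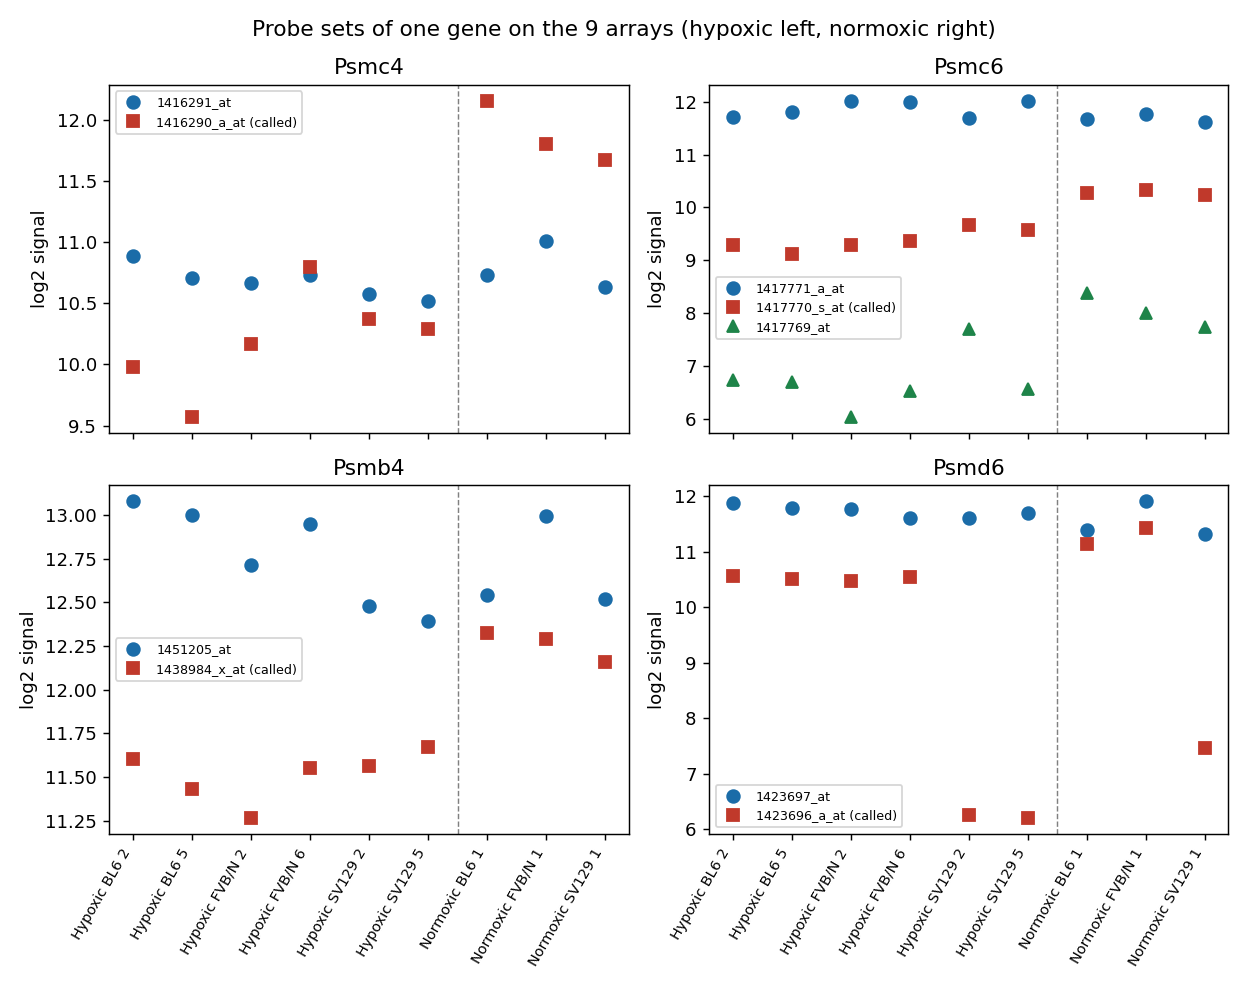
Log2 signal of each tested probe set of Psmc4, Psmc6, Psmb4 and Psmd6 on the 9 arrays, hypoxic arrays left of the dashed line and normoxic arrays right of it. Red squares mark the probe set called for hypoxia and blue circles and green triangles the other probe sets of that gene, and the red squares are lower on the hypoxic arrays than on the normoxic array of the same strain in each gene.

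Whether probe sets of 1 gene changed unequally was tested directly, on the log2 difference between each other probe set and the brightest of its gene. This test was added after the data had been seen. It covered 10490 pairs, 32 of them in 21 proteasome genes. The difference between probe sets changed with hypoxia in 8 of the 32 proteasome pairs (25%), against 15.2% of all pairs. The Psmc4 pair had the largest difference, with 1416291_at changing by 1.58 ± 0.25 more than 1416290_a_at (adjusted limma p 0.0061). In Psmc6 the difference was -1.52 for 1417769_at (adjusted p 0.0217) and -1.08 for 1417770_s_at (adjusted p 0.0070), in Psmd6 -1.11 (adjusted p 0.0088) and in Psmb4 -0.83 (adjusted p 0.0164). The other pairs were in Psma7 (0.49, adjusted p 0.0452), Psmc2 (0.96 for 1443307_at, adjusted p 0.0258) and Psmd4 (-0.62 for 1425859_a_at, adjusted p 0.0264). Of the 32 other probe sets 15 had a change of the same sign as the brightest (46.9%), against 58.5% over all pairs. Without both arrays that carried kidney transcripts 0 of the 32 pairs were called, and the Psmc4 difference was then 1.81 (adjusted limma p 0.0549). The others were 0.55 in Psma7, -0.83 in Psmb4, 0.80 in Psmc2, -1.26 and -1.04 in Psmc6, -0.59 in Psmd4 and -1.35 in Psmd6. The share of all pairs called in that setting is not given here. Without that share the count of 0 cannot be read as a result about proteasome pairs. Hypoxia calls over all tested probe sets, a different test, fell from 1016 to 228.

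None of the 4 called probe sets ended in plain _at. In the array maker's naming, _a_at stands for several transcripts of 1 gene, _s_at for probes shared among transcripts and _x_at for some probes that also match other sequences. Lower calls made up 2 of 19 tested members ending in _a_at, 1 of 4 ending in _s_at and 1 of 7 ending in _x_at. Over all tested probe sets the shares called lower were 2.43% for _a_at, 2.84% for _s_at, 8.91% for _x_at and 1.02% for plain _at. When all tested probe sets of a gene were averaged, 0 of the 41 proteasome genes were called for hypoxia by limma (9 had an unadjusted p under 0.05), as were 5 of 12895 genes in all, and Psmc4 then had a change of -0.90 with an adjusted p of 0.0614.

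Called or not, 8 of the 73 tested member probe sets (11%) had all 6 hypoxic arrays below all 3 normoxic arrays, against 4.12% of all tested probe sets. These were 1416290_a_at of Psmc4, both dimmer probe sets of Psmc6, 1438984_x_at of Psmb4, 1435859_x_at of Psmc2, 1434356_a_at of Psma5 (-0.48), 1440253_at of Psmd11 (-0.40) and 1432820_at of Psmd7 (-0.91). The called probe sets of Psmc4, Psmc6 and Psmb4 are among them, so this count is not separate from the calls. Only 2 member probe sets (2.74%) had all hypoxic arrays above, 1418874_a_at of Psmd4 (0.46) and 1429370_a_at of Psmd11 (0.26), against 6.53% of all tested probe sets. Psmd11, a lid subunit that helps to clamp the cap onto the core, thus had a probe set in each set.

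In the alpha ring of the core 7 genes were tested and none was called (3 of 13 probe sets had an unadjusted p under 0.05). The median change was -0.02. Psma4 had the highest change of all 41 genes, with 12.36 and 12.14 on hypoxic BL6 arrays, 12.09 and 12.07 on hypoxic FVB/N arrays and 11.84 and 11.71 on hypoxic SV129 arrays, against 11.46, 11.84 and 11.38 on the normoxic BL6, FVB/N and SV129 arrays. Each hypoxic array lay above the normoxic array of its own strain, but the change of 0.47 ± 0.13 missed the threshold (adjusted limma p 0.0797). Psma5 was lowest at -0.48 ± 0.17 (adjusted p 0.142), with 11.26 to 12.04 on hypoxic arrays and 12.09 to 12.25 on normoxic arrays. Its other tested probe set, 1424681_a_at, had a change of -0.02. Psma1, Psma2, Psma3, Psma6 and Psma7 had changes of -0.09 to 0.10 on their brightest probe sets.

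In the constitutive beta ring, 7 genes had a median change of 0.09. Psmb2, a structural beta subunit, had the lowest value and the widest spread. It read 11.19 and 11.30 on hypoxic BL6 arrays, 9.76 and 10.72 on hypoxic FVB/N arrays and 11.27 and 9.62 on hypoxic SV129 arrays, against 11.26, 11.53 and 11.21 on the normoxic BL6, FVB/N and SV129 arrays. Hypoxic FVB/N array 2 and hypoxic SV129 array 5 stood well below the rest, and the change of -0.69 ± 0.38 was not called (adjusted limma p 0.322). The same 2 arrays gave the lowest hypoxic values of the lid gene Psmd8, 10.99 and 10.76. They also had the highest log2 ratios of 3-prime to 5-prime actin signal, 0.51 and 0.64. Hypoxic SV129 array 2 was close to them at 0.48, and the part of this ratio in the low values was not tested. Psmb3, a neighbouring structural subunit, was highest at 0.30 ± 0.12 (adjusted p 0.179), reading 11.65 to 12.05 on hypoxic arrays and 11.29 to 11.65 on normoxic arrays. Psmb1 had a change of -0.13.

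The 19S base beside the ATPases consists of large scaffold subunits and a ubiquitin receptor. All 3 of its genes had a change above 0, with a median of 0.24, and none was called (2 of 5 probe sets had an unadjusted p under 0.05). Psmd4, the receptor that binds ubiquitin chains, read 11.98 and 11.83 on hypoxic BL6 arrays, 12.15 and 11.94 on hypoxic FVB/N arrays and 11.67 and 12.10 on hypoxic SV129 arrays, against 11.56, 11.63 and 11.26 on the normoxic BL6, FVB/N and SV129 arrays. No hypoxic value fell within the normoxic range, yet the change of 0.46 ± 0.13 had an adjusted limma p of 0.0895, and its probe set 1425859_a_at had a change of -0.16 ± 0.11. Psmd2, a scaffold that docks ubiquitin-handling factors, had a change of 0.22 ± 0.13, with 11.66 to 12.20 on hypoxic arrays and 11.66 to 11.95 on normoxic arrays. Psmd1, the other scaffold, had a change of 0.24.

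The lid, which holds the deubiquitinase that strips ubiquitin from substrates, had 8 tested genes with changes from -0.11 to 0.23 and a median of 0.14, 7 of them above 0. Psmd7, the partner of that enzyme, was highest at 0.23 ± 0.13 (adjusted limma p 0.33), with 10.60 to 11.11 on hypoxic arrays and 10.45 to 10.70 on normoxic arrays. Psmd8 was lowest at -0.11 ± 0.23, with 10.76 to 12.06 on hypoxic arrays and 11.18 to 11.93 on normoxic arrays. The change was 0.12 for Psmd14, the deubiquitinase itself, and 0.22 for Psmd12, 0.13 for Psmd13, 0.15 for Psmd11 and 0.01 for Psmd3, which help to build the lid.

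The chaperones that assemble the base and then leave it were not called either, on 4 probe sets with 0 unadjusted p-values under 0.05 in limma. Psmd10 was highest at 0.31 ± 0.18, reading 9.02 to 9.86 on hypoxic arrays and 8.87 to 9.40 on normoxic arrays. Psmd9 was lowest at -0.29 ± 0.19, with 8.60 to 9.47 on hypoxic arrays and 9.46 to 9.62 on normoxic arrays. Psmd5 had a change of 0.26 ± 0.14. The ranges of hypoxic and normoxic arrays overlapped for all 3.

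Among the activators and the inhibitor 0 of 10 probe sets were called, and 0 had an unadjusted p under 0.05 in limma. Psme1, a subunit of the interferon-induced activator that favours peptide release for antigen presentation, read 12.29 to 12.58 on hypoxic arrays and 12.00 to 12.55 on normoxic arrays, a change of 0.12 ± 0.13. Psme3, the nuclear activator, read 9.01 to 9.72 on hypoxic arrays and 9.19 to 9.88 on normoxic arrays (-0.06 ± 0.16). Psme4, a large single-chain activator, read 10.73 to 11.41 on hypoxic arrays and 10.91 to 11.56 on normoxic arrays (-0.21 ± 0.20). Psmf1, which inhibits the core in vitro, was the steadiest of these, at 9.24 to 9.33 on hypoxic arrays and 9.22 to 9.39 on normoxic arrays (-0.03 ± 0.13).

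The catalytic subunits of the immunoproteasome varied together over the arrays, and none was called in any comparison. Psmb8 read 11.33 and 11.44 on hypoxic BL6 arrays, 11.42 and 11.57 on hypoxic FVB/N arrays and 10.56 and 10.40 on hypoxic SV129 arrays, against 11.09, 10.67 and 10.86 on the normoxic BL6, FVB/N and SV129 arrays. Hypoxic BL6 and FVB/N arrays were above their own normoxic array and hypoxic SV129 arrays below it. Psmb9 read 11.31 and 11.39 on hypoxic BL6 arrays, 11.43 and 11.49 on hypoxic FVB/N arrays and 10.63 and 9.86 on hypoxic SV129 arrays, against 10.88, 10.65 and 10.59 on the normoxic BL6, FVB/N and SV129 arrays. Psmb10 read 11.32 and 11.50 on hypoxic BL6 arrays, 11.51 and 11.58 on hypoxic FVB/N arrays and 11.01 and 10.79 on hypoxic SV129 arrays, against 11.20, 10.76 and 11.04 on the normoxic BL6, FVB/N and SV129 arrays. On these probe sets all 3 genes were thus highest on the 4 hypoxic BL6 and FVB/N arrays. A second, dim Psmb8 probe set, 1444619_x_at, did not show this order. Its log2 difference from the brightest was -4.23 and -3.98 on hypoxic SV129 arrays, against -4.58 on the normoxic SV129 array.

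Across strains their changes were 0.25 ± 0.20 for Psmb8, 0.31 ± 0.23 for Psmb9 and 0.29 ± 0.17 for Psmb10, with adjusted limma p-values of 0.498, 0.462 and 0.364. Single arrays moved these values both ways. Without both arrays that carried kidney transcripts they were -0.07, 0.02 and 0.05, and without the normoxic FVB/N array alone -0.04, 0.06 and 0.03. Without the normoxic SV129 array they were 0.56, 0.64 and 0.50, and without hypoxic SV129 array 5 that of Psmb9 was 0.48. None was called under any of these. Within FVB/N the changes were 0.83, 0.81 and 0.79 (adjusted p 0.0519, 0.151 and 0.0613), within BL6 0.30, 0.47 and 0.22, and within SV129 -0.38, -0.34 and -0.14. The FVB/N changes rest on the 1 normoxic array that also carried kidney and muscle transcripts, and the part of those transcripts was not tested. The interaction of strain and pressure had adjusted p-values of 0.246, 0.472 and 0.363, so no difference between strains was shown.

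The constitutive subunits that these replace were not called. Psmb5, the chymotrypsin-like subunit replaced by Psmb8, read 12.31 and 12.37 on hypoxic BL6 arrays, 11.76 and 12.02 on hypoxic FVB/N arrays and 11.75 and 11.81 on hypoxic SV129 arrays, against 11.66, 12.51 and 11.51 on the normoxic BL6, FVB/N and SV129 arrays. Its change was 0.11 ± 0.21 across strains. Psmb6, the caspase-like subunit replaced by Psmb9, read 11.46 to 11.86 on hypoxic arrays and 11.46 to 11.80 on normoxic arrays (0.09 ± 0.12). Psmb7, the trypsin-like subunit replaced by Psmb10, read 12.47 to 12.82 on hypoxic arrays and 12.61 to 13.07 on normoxic arrays (-0.15 ± 0.13). In FVB/N all 3 had values below 0 (-0.62, -0.16 and -0.53), where the immunoproteasome subunits had values above 0. Values below 0 were not particular to these 3 subunits. Of the 41 tested genes 26 were below 0 in FVB/N and 15 above, on their brightest probe sets. Those below included 6 of 7 constitutive beta ring genes and 7 of 8 lid genes. All FVB/N changes share 1 normoxic array, and the part of its kidney and muscle transcripts was not tested.

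Of 9 leukocyte markers 8 were on the array. Their mean log2 signal was 9.47 to 10.06 on hypoxic arrays and 9.75 to 10.08 on normoxic arrays, and their summed signal 30880 to 36480 on hypoxic arrays and 25050 to 26190 on normoxic arrays. The summed signal, taken from the deposited values before quantile normalization, separated the pressures. The mean log2 signal, taken after quantile normalization, did not. These measures differ in normalization as well as in summing, and the part of each in the contrast was not tested. The summed signal of the 7 lung markers did so too, at 160100 to 195900 on hypoxic arrays and 116600 to 123000 on normoxic arrays, so the separation was not particular to leukocyte markers. The part of leukocytes in the immunoproteasome values was not tested.

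**Figure D3:**
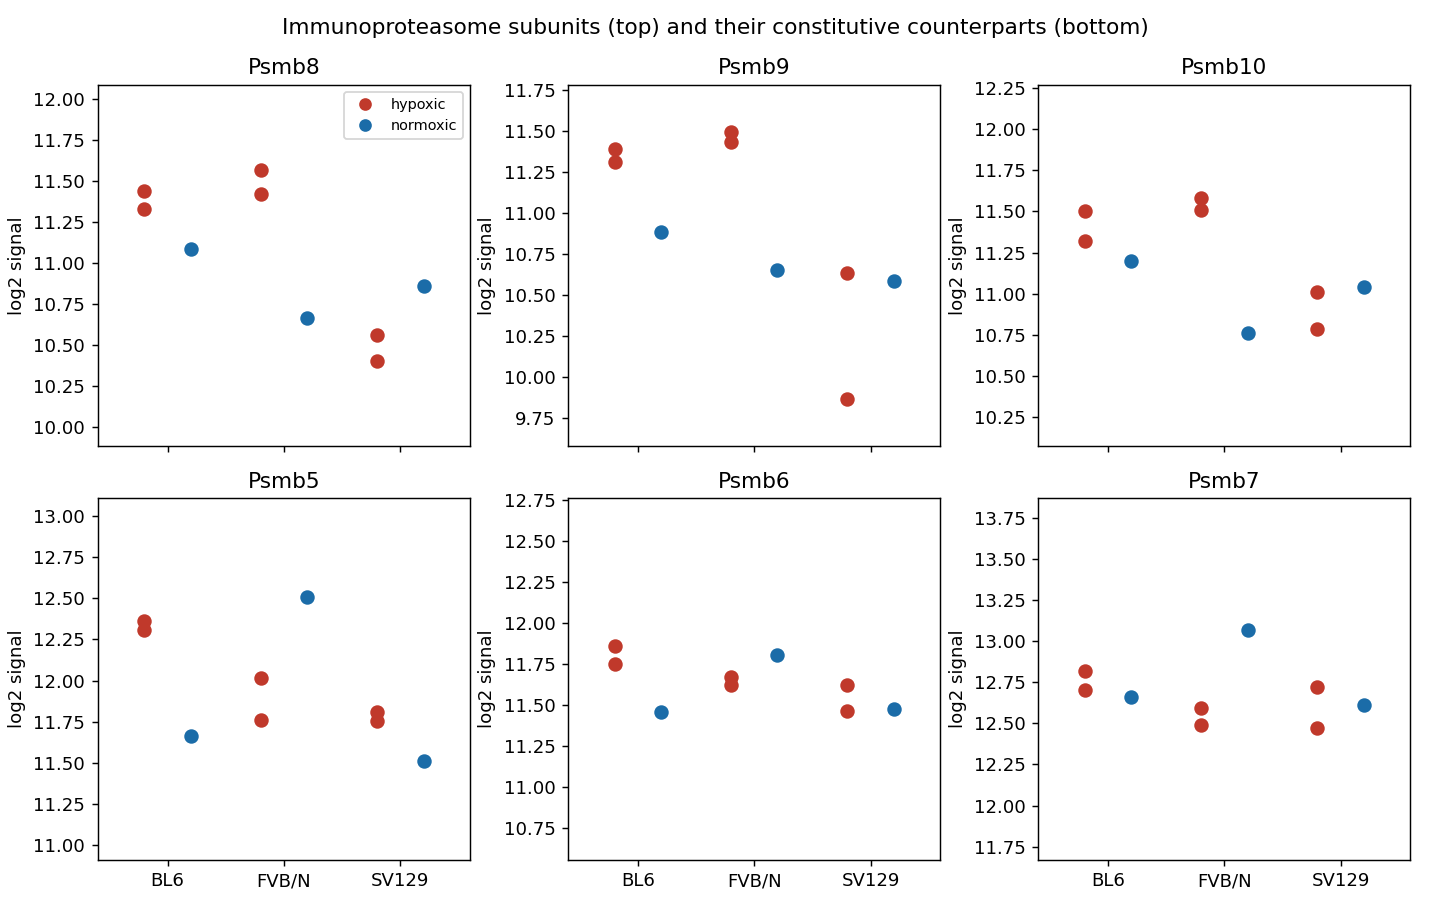
Log2 signal of the immunoproteasome subunits Psmb8, Psmb9 and Psmb10 (top) and of the constitutive subunits they replace (bottom), by strain, with hypoxic arrays in red left of the normoxic array in blue. In the top row both red points lie above the blue one in BL6 and FVB/N, whereas in SV129 both lie below it for Psmb8 and Psmb10 and 1 lies below it for Psmb9.

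The promoters of these genes are shown because their transcripts varied together. The RefSeq windows (GRCm38.p6) run from 250 bases before to 50 bases after the start. Windows of a chromosome that holds none of the genes shown were left out beforehand, and 36 of the 43 genes matched the windows kept. Psmb8 lies at chr17:34197945-34198244 on the plus strand, Psmb9 at chr17:34187281-34187580 on the minus strand and Psmb10 at chr8:105938343-105938642 on the minus strand. Capitals mark a gamma-activated site (TTCNNNGAA) in Psmb8, at bases 154 to 162, and a CCAAT box, read as its reverse complement, in Psmb9, at bases 243 to 247. Each is written along the gene's own strand.
Psmb8: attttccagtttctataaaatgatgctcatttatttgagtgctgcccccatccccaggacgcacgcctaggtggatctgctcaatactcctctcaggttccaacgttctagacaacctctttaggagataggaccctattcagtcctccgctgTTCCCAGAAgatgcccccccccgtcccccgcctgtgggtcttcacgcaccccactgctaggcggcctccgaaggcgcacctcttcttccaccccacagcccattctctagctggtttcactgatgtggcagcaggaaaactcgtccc
Psmb9: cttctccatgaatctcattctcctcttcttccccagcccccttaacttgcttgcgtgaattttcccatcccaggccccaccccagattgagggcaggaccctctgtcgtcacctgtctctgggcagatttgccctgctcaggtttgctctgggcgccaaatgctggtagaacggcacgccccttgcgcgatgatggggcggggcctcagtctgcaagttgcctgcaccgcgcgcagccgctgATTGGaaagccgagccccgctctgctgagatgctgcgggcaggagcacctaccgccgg
Psmb10: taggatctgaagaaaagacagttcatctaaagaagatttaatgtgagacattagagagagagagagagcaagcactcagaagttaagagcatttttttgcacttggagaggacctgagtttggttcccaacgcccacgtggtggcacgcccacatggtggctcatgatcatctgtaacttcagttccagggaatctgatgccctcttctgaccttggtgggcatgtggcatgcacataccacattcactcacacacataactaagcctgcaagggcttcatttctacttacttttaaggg

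The Psmb9 window shares 275 bases with that of Tap1, the peptide transporter gene on the opposite strand, with which it is known to share a promoter. Motifs were searched on both strands as GAAANNGAAA (interferon-stimulated response element), TTCNNNGAA, TGACNNNGC (antioxidant response element) and CCAAT. The Psmb10 window held none of the 4. The gamma-activated site was found in 2 of 38 proteasome windows, those of Psmb8 and Psmd2, against 8.3% of all 32851 windows searched. The interferon-stimulated element was in 4 of 38 (Psmb3, Psmd4, Psmd9 and Psme1), against 3.44% in all. The antioxidant element was in 6 of 38 (Psmb5, Psmb6, Psmc6, Psmd9, Psmd12 and Psme4), against 12.4% in all, and CCAAT in 14 of 38, against 37.4% in all. These are matches of letters only.

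Between strains the proteasome genes differed in 1 probe set. Psmd6 probe set 1423696_a_at averaged 10.73 in BL6 and 10.81 in FVB/N, against 6.64 in SV129 (n = 3 arrays each). Its difference was 4.09 ± 0.18 for BL6 minus SV129 (17.1-fold, adjusted limma p 1.85e-05) and 4.17 ± 0.18 for FVB/N minus SV129 (18-fold, adjusted p 8.37e-06). All 3 SV129 arrays lay below all 6 others, and of 27022 tested probe sets 5, itself included, were at least as far below both other strains in SV129. The other Psmd6 probe set lay between 11.31 and 11.91 on all 9 arrays, and the difference between the probe sets changed by 3.95 for BL6 minus SV129.

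That 1 call was 1.37% of the tested members for each of these contrasts, against 2.51% of all tested probe sets for BL6 minus SV129 and 2.89% for FVB/N minus SV129. The same pair of probe sets was the only one called between these strains, 1 of 32 member pairs (3.12%), against 1.95% and 2.24% of all pairs. Both contrasts share the SV129 arrays. For BL6 minus FVB/N 0 of 73 members were called by limma (1 had an unadjusted p under 0.05), against 2.07% of all tested probe sets, and 0 of 32 pairs (0 with an unadjusted p under 0.05), against 1.51%. Over the brightest probe sets 31 of 41 genes were above 0 for BL6 minus SV129, with a median of 0.13, and 34 of 41 for FVB/N minus SV129, with a median of 0.18. The medians over all tested genes were -0.02 in both. The highest of the brightest probe sets in both was Psmb9, at 0.83 (adjusted p 0.166 for BL6 minus SV129 and 0.163 for FVB/N minus SV129).

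Within a single strain calls were made in FVB/N alone. There 3 members were lower in hypoxia (4.11%), against 6.80% of all tested probe sets called in either direction and 3.85% called lower. They were 1416290_a_at of Psmc4 (-1.33 ± 0.31, adjusted limma p 0.0479), 1417770_s_at of Psmc6 (9.30 and 9.36 on hypoxic arrays against 10.33 on the normoxic one, adjusted p 0.0470) and 1438984_x_at of Psmb4 (-0.88 ± 0.20, adjusted p 0.0451). Without both arrays that carried kidney transcripts no strain gave a call among the members, and FVB/N then had no normoxic array. In BL6 0 of 73 members were called (14 had an unadjusted p under 0.05), against 0.0148% of all tested probe sets, although the Psmc4 probe set had its largest value there at -2.38. In SV129 0 of 73 were called (6 with an unadjusted p under 0.05), against 0% of all. The interaction called 0 of 73 members (4 with an unadjusted p under 0.05), against 0% of all, so a difference in response between strains was not shown for any subunit.

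Each within-strain value rests on 1 normoxic array, so a strain difference and the state of that array cannot be told apart. The lid is an example. Its 8 genes averaged 0.16 and 0.13 on hypoxic BL6 arrays, 0.02 and 0.03 on hypoxic FVB/N arrays and -0.05 and -0.04 on hypoxic SV129 arrays, each relative to a gene's mean over 9 arrays, against -0.21, 0.24 and -0.26 on the normoxic BL6, FVB/N and SV129 arrays. All 8 genes had a change above 0 in BL6 and 1 of 8 in FVB/N. The immunoproteasome genes spread furthest among the particles. On the same scale they averaged 0.27 and 0.40 on hypoxic BL6 arrays, 0.41 and 0.50 on hypoxic FVB/N arrays and -0.31 and -0.70 on hypoxic SV129 arrays, against 0.01, -0.36 and -0.22 on the normoxic BL6, FVB/N and SV129 arrays.

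**Figure D4:**
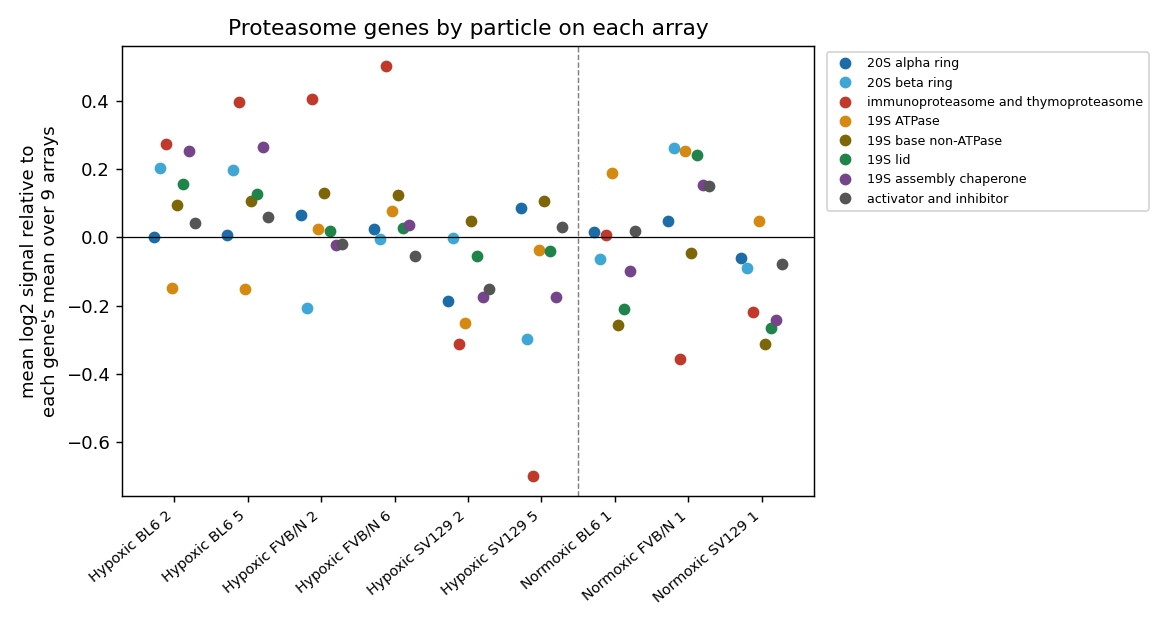
Mean log2 signal of the genes of each proteasome particle on each array, relative to each gene's mean over the 9 arrays, hypoxic arrays left of the dashed line and normoxic arrays right of it. The red immunoproteasome points range from -0.70 to 0.50, and the points of the other particles from -0.31 to 0.26.

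Genes around the proteasome were listed beside the subunits: assembly factors, class I loading genes and their regulators, other proteasome-bound proteins, p97 and its regulators, and ubiquitin with its activating enzymes. Of the 40 listed, 30 were tested, and 0 were called for hypoxia across strains by limma (7 had an unadjusted p under 0.05), against 3.76% of all tested probe sets, with a median of -0.09 against 0.03 over all tested genes. For BL6 minus FVB/N 1 of 30 was called, against 2.07% of all tested probe sets, and for hypoxia in FVB/N 1 of 30, against 6.80%. Tap1, which moves peptides into the endoplasmic reticulum for class I loading, was called between strains. It read 10.32, 10.26 and 9.84 in BL6 (the last normoxic) and 9.63, 9.41 and 8.84 in FVB/N (the last normoxic), a difference of 0.85 ± 0.17 for BL6 minus FVB/N with an adjusted limma p of 0.0386. Its change for hypoxia across strains was 0.49 ± 0.15 (adjusted p 0.0974), with all 6 hypoxic arrays above the normoxic array of their strain. Irf1, an interferon-induced regulator of class I genes, was higher in hypoxic FVB/N lungs by 1.22 (adjusted p 0.0336), and its change was 0.57 across strains (adjusted p 0.147). The FVB/N value rests on the normoxic array with kidney and muscle transcripts, whose part was not tested.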

How the data were processed

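Per the labels' protocols, RNA from snap-frozen right lung was extracted on columns and labelled with biotin for one-colour arrays. The deposited table holds a linear intensity for each probe set on each array, and no source used here names the software behind it. From the values, the authors had scaled each array's intensity to a mean of 500 with 2% of probe sets trimmed at each end, without quantile normalization. Group, pressure and array number came from titles and descriptions. Another 12 arrays named in the design text were not analysed here.

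Signals were taken as log2(signal + 16) and quantile normalized, so fold changes understate those of dim probe sets. From 45101 probe sets 64 controls and then the dimmest 40% were left out. All 9 arrays entered each model, fitted by lmFit and eBayes with a trend (limma 3.58.1, R 4.3.3). An additive model of strain and condition had 5 residual degrees of freedom, and a model of 6 groups, for effects within a strain and the interaction, had 3. There the lone normoxic array of a strain is assumed to vary like the hypoxic ones. The models were tested on simulated data.

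Full values are given for members called in any comparison, the catalytic pairs, the activators and inhibitor, and the highest and lowest gene of each particle. Genes of the related list are named where called. The members, lists and tests were chosen with earlier results of these data known. The test between probe sets of 1 gene was added after seeing the data. Array numbers were not used to pair the samples in the reported setting, and the labels do not say what they mean. Every normoxic array has the number 1, so the numbers cannot pair hypoxic with normoxic arrays. Deviations of same-numbered hypoxic BL6 and SV129 arrays correlated at -0.0422, which cannot exclude a pairing among hypoxic arrays. All 43 gene identifiers matched a current gene table, and 0 symbols changed.

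Alternatives were array weights, robust eBayes or none of its trend, a filter of 60% or none, pseudocounts of 1 and 64, median centring, the deposited scaling, the array number as a block, the mean of a gene's probe sets, and leaving out each array in turn or both arrays with kidney transcripts.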

Additional observations from a re-analysis of the deposited data

Results flagged for a closer look

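For 44 proteasome probe sets, the brightest of each of the 41 tested genes and the other called ones, the 6 hypoxic arrays were examined for 1 array that stood apart beyond Dixon's 95% critical value. Chance flags about 1 in 20 groups drawn from 1 population. The 6 arrays come from 3 strains, so that rate is only a rough guide. Hypoxic SV129 array 5 stood apart in 3 of the 44 probe sets. Psmb1 (1448166_a_at) was lowest there at a log2 signal of 11.7, with the next array at 11.99. Psmd9 (1423386_at) was lowest there at 8.597, with the next array at 9.202. Psmb3 (1460198_a_at) was highest there at 12.05, with the next array at 11.78. The same array had the highest log2 ratio of 3-prime to 5-prime signal for Gapdh (0.25) and actin (0.64) of the 9 arrays, and the part of this in the 3 values was not tested.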

How the results depend on the processing

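The 4 hypoxia calls became 8 with array weights, 1 without both arrays with kidney transcripts and 15 with the array number as a random replicate block (block correlation -0.241, which raised the calls over all probe sets to 5586), and 0 to 5 with each array left out. Over all tested probe sets the hypoxia calls went from 1016 to 1871 with array weights and to 228 without both arrays with kidney transcripts. With each array left out they ranged from 3 to 1390. The proteasome calls were 4 or 5, all lower, under the deposited scaling, median centring, pseudocounts of 1 and 64, no filter, a filter of 60%, and eBayes without the trend or robust. All probe sets then gave 582 to 1440 calls. A fixed block could not be fitted for hypoxia, since the number nests in pressure, and left the strain counts at 0, 1 and 1. Over all probe sets median centring moved the share of higher calls to 71.3%, against 51.7% in the reported setting. The single calls for BL6 minus SV129 and for FVB/N minus SV129 became 5 and 4 with array weights. Over all tested probe sets these weights raised the calls from 678 to 1291 and from 780 to 918. With each array left out the proteasome calls ranged from 1 to 1 and from 1 to 2 (2 without the normoxic FVB/N array). The 3 calls within a strain became 0 with no filter, 5 with a filter of 60%, 0 without the trend and 0 without both arrays with kidney transcripts, and 0 to 11 with each array left out: 0 without any hypoxic BL6 or FVB/N array or the normoxic FVB/N array, 11 without hypoxic SV129 array 2 and 10 without hypoxic SV129 array 5. The 8 calls between probe sets of 1 gene became 0 without both arrays with kidney transcripts and 1 to 9 with each array left out, with 1 without the normoxic BL6 array and 4 without hypoxic BL6 array 2 or without the normoxic array of FVB/N or of SV129. Totals over all probe sets or pairs are not given here for the counts within a strain and between probe sets under these settings. The counts for BL6 minus FVB/N and for the interaction stayed at 0 in each setting run. Psmd6 kept its strain calls in 21 of 21 settings for both contrasts. Psmc4 stayed below 0 in 21 of 21 settings (-2.27 to -0.90) and past the threshold in 17, with adjusted p-values up to 0.0771. Psmc6 and Psmb4 were past it in 16 of 20 and Psmd6 in 14 of 20, all below 0. Of 800 values of the 40 genes not called, 7 passed the threshold, 1 with array weights and 6 with the random block. The cause of these shifts was not tested. Array weights were not run in the model of 6 groups, where they did not converge.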
